A study of Homo sapiens with 12 samples.

Results

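The CDK inhibitor genes are the 7 human genes CDKN1A, CDKN1B, CDKN1C, CDKN2A, CDKN2B, CDKN2C and CDKN2D, and they were taken by symbol from the 58302 genes of the deposited tables. All 7 were found, each in a single row. H1299 and H1703, both established from human non-small-cell lung cancers, had been exposed for 24 h to SAHA (vorinostat), which inhibits histone deacetylases, or to the DMSO vehicle, and their messenger RNA was counted. Each line contributed 3 libraries of either treatment, 12 in all. The labels give no genetic change to either line. The protocol lists SAHA at 0, 2.5, 10 and 40 µM with 0.1% DMSO as the vehicle, and it does not tie a dose to the sequenced samples, so no value below belongs to a stated dose.

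Cyclin-dependent kinases, joined to cyclins, drive a cell from growth into DNA synthesis by phosphorylating the retinoblastoma protein. The Cip/Kip inhibitors p21 (CDKN1A), p27 (CDKN1B) and p57 (CDKN1C) bind cyclin-kinase complexes and chiefly block CDK2. The INK4 inhibitors p16 (CDKN2A), p15 (CDKN2B), p18 (CDKN2C) and p19 (CDKN2D) bind CDK4 and CDK6 alone and keep D-type cyclins from them. CDKN2A also encodes the unrelated protein ARF from a separate first exon. CDKN2A and CDKN2B lie side by side on the short arm of chromosome 9 and are often lost together in lung cancer. In the deposited tables (GRCh38) the genes lie at chr6:36676460-36687339 (CDKN1A), chr12:12715058-12722371 (CDKN1B), chr11:2883213-2885881 (CDKN1C), chr9:21967753-21995301 (CDKN2A), chr9:22002903-22009363 (CDKN2B), chr1:50960745-50974633 (CDKN2C) and chr19:10566462-10569059 (CDKN2D).

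Total counts ran from 14.4M to 19.4M per library. Levels are counts-per-million (CPM) scaled by trimmed means of M-values (TMM) over the 12 libraries, given as mean ± SD of 3 libraries. A gene was called when the Benjamini-Hochberg adjusted p of edgeR's quasi-likelihood test was below 0.05, and each log2 fold change carries its SE. The labels do not say that replicates were separate cultures, so these p-values measure the spread between these libraries, which may be technical. The labels do name a batch for each library, Repeat 1 to Repeat 3, and each repeat holds 1 library of every group. Both lines are labelled as epithelial. The keratin genes KRT8 and KRT18 were abundant in every library, at 3512 counts or more, but EPCAM and CDH1, defining genes of epithelium, stayed below 10 counts in every H1299 library, and CDH1 was at 0 in its 3 DMSO libraries. In H1703 all 6 epithelial markers had counts.

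In H1299 with SAHA, CDKN1A, CDKN1C, CDKN2B and CDKN2D rose, CDKN1B and CDKN2C fell, and CDKN2A was not called. That is 4 of 7 genes higher and 2 lower, where 33.3% of the 17277 genes tested were called higher, 30.4% lower and 63.8% in either direction. In H1703, CDKN1A, CDKN1B and CDKN2D rose, CDKN1C and CDKN2C fell, and CDKN2A and CDKN2B had no counts at all. That is 3 of 5 tested genes higher and 2 lower, against 34.7% of 17273 genes called higher, 32.6% lower and 67.4% either way. With so much of the transcriptome called, a call by itself sets no member apart. The members' median log2 fold change was 0.51 in H1299 and 0.31 in H1703, beside 0.02 over all tested genes in both lines. CDKN1A, CDKN2C and CDKN2D moved alike in direction in both lines, whereas CDKN1B and CDKN1C moved in opposite directions.

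**Figure D1:**
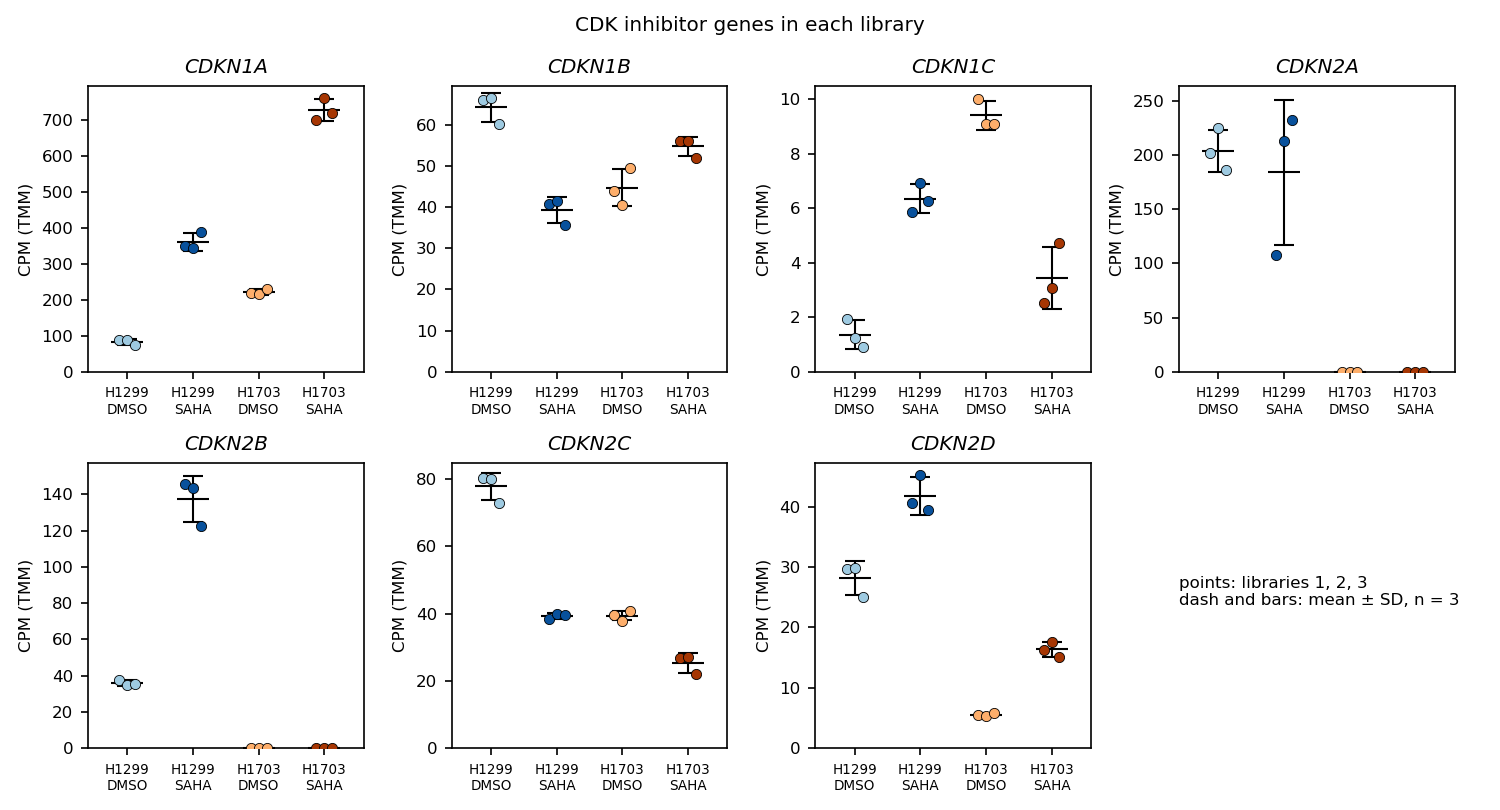
Level of each CDK inhibitor gene in every library, in CPM with TMM scaling (linear axes from 0, 1 panel per gene). Points are libraries 1 to 3 of a group, and the dash and bars are the mean ± SD (n = 3). CDKN1A is higher with SAHA in both lines, CDKN1B and CDKN1C move in opposite directions, and CDKN2A and CDKN2B lie at 0 in all H1703 libraries.

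**Figure D2:**
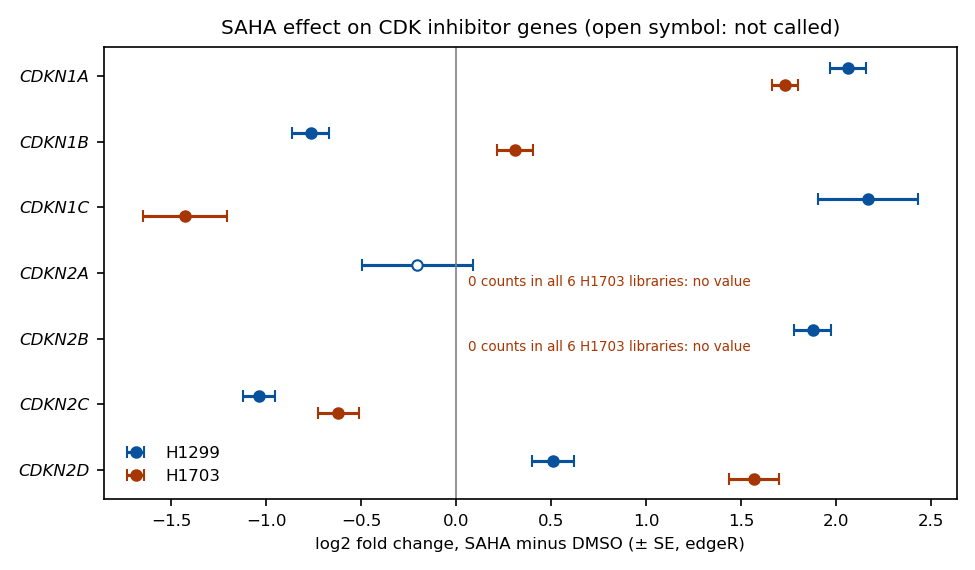
Log2 fold change of each CDK inhibitor gene, SAHA minus DMSO, in H1299 (blue) and H1703 (brown), with the SE from edgeR. Filled symbols were called and the open symbol was not. The values of CDKN1B and CDKN1C lie on opposite sides of 0 in the lines, and CDKN1A is the only gene above 1.5 in both.

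Among the Cip/Kip genes, CDKN1A encodes p21, an inhibitor known as a gene that histone deacetylase inhibitors raise. In H1299 it had 1459, 1484 and 1317 counts with DMSO and 5861, 5439 and 6653 with SAHA. In H1703 it had 3431, 3715 and 3356 counts with DMSO and 10542, 13107 and 10958 with SAHA. Every SAHA library was above every DMSO library of its line. The level went from 83.5 ± 7.75 to 362 ± 24.3 CPM in H1299 (log2 fold change 2.06 ± 0.10, adjusted p = 3.78e-07) and from 222 ± 7.54 to 728 ± 30.5 CPM in H1703 (1.73 ± 0.07, adjusted p = 5.76e-08). Under DMSO, H1703 held 2.66-fold more than H1299 (log2 difference 1.41 ± 0.08, adjusted p = 2.71e-09), and the line with the higher level at the start had the smaller rise on the log2 scale. The difference of the rises was -0.40 ± 0.12 on the log2 scale (adjusted p = 0.0152), and it was no longer called without repeat 1 (-0.45, adjusted p = 0.0769) or without repeat 3 (-0.23, adjusted p = 0.169).

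CDKN1B encodes p27, a brake of quiescent cells whose amount is known to be set largely by protein degradation. Its counts in H1299 were 1092, 1124 and 1061 with DMSO and 680, 653 and 607 with SAHA. In H1703 they were 689, 695 and 719 with DMSO and 841, 964 and 791 with SAHA. The groups did not overlap in either line, and the directions were opposite. In H1299 the level fell from 64.2 ± 3.57 to 39.2 ± 3.20 CPM (-0.76 ± 0.10, adjusted p = 0.000122), and in H1703 it rose from 44.7 ± 4.49 to 54.7 ± 2.33 CPM (0.31 ± 0.10, adjusted p = 0.0167). The rise in H1703 was small, with differences of 0.35, 0.47 and 0.07 in repeats 1, 2 and 3. Its call was lost without DMSO library 1 (adjusted p = 0.0625), DMSO library 2 (0.0862), SAHA library 1 (0.0565), all of repeat 1 (0.142) or all of repeat 2 (0.131). The difference of the effects between the lines, 1.00 ± 0.14 (adjusted p = 6.11e-05), was called under every alternative run.

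The promoters of CDKN1A and CDKN1B are shown because the first gene rose in both lines and the second went opposite ways. Each is given as the 250 bases before a RefSeq start site on GRCh38.p14, sense strand 5′ to 3′, at chr6:36678464-36678713 and chr12:12717118-12717367 (both on the plus strand). Both windows lie within the genes' spans in the deposited tables, which begin upstream of these start sites. Capitals mark the GC box GGGCGG, or CCGCCC on the other strand, the element that SP1 and KLF proteins are known to bind.
CDKN1A: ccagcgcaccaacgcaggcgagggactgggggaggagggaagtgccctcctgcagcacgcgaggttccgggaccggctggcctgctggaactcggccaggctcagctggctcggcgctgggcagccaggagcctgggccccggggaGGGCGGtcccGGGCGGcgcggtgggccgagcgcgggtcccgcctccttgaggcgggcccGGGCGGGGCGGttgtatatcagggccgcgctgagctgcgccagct
CDKN1B: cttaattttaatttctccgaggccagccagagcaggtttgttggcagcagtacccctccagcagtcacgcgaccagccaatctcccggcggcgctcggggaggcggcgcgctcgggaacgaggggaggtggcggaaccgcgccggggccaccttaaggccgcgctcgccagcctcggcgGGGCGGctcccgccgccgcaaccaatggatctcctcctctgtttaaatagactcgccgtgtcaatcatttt
The CDKN1A window holds 4 GC boxes, the last 2 overlapping, with starts from 104 to 40 bases before the start site. Of the 35116 RefSeq promoter windows of this length, 42.6% hold at least 1 GC box and 7.6% hold 4 or more. The CDKN1B window holds 1 GC box and 2 CCAAT motifs (CCAAT or ATTGG on either strand, found in 32.0% of windows). Neither holds CACGTG, found in 6.3% of windows, or TATAAA (either strand), found in 10.7%.

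CDKN1C encodes p57, an imprinted growth inhibitor of the chromosome 11p15 domain that is expressed in most tissues from the maternal copy. In H1299 it was nearly silent with DMSO, at 32, 21 and 16 counts, and reached 98, 109 and 107 with SAHA. In H1703 it went the other way, from 157, 156 and 132 counts to 38, 53 and 72. Groups did not overlap in either line. The level rose from 1.36 ± 0.525 to 6.35 ± 0.538 CPM in H1299 (2.17 ± 0.26, adjusted p = 8.81e-05) and fell from 9.40 ± 0.538 to 3.45 ± 1.15 CPM in H1703 (-1.43 ± 0.22, adjusted p = 0.000299). Under DMSO the lines differed 6.90-fold, with H1703 the higher (2.79 ± 0.27, adjusted p = 4.71e-07). With SAHA the order of the lines was the reverse, since the lowest H1299 value, 5.86 CPM, lay above the highest H1703 value, 4.73 CPM. The difference of the effects, -3.67 ± 0.37 (adjusted p = 3.54e-06), was the largest in size among the 5 members that have one. CDKN1C stayed the scarcest member in H1299 in both groups.

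CDKN2A was abundant in H1299 and not detected in H1703. Its counts in H1299 were 3333, 3800 and 3289 with DMSO and 1798, 3352 and 3960 with SAHA, so the groups overlapped. SAHA library 1 alone was below the DMSO libraries, and SAHA library 3 was above them. The levels were 204 ± 19.4 and 184 ± 67.1 CPM (-0.20 ± 0.29, adjusted p = 0.573), and without SAHA library 1 the value was 0.07 (adjusted p = 0.539). The counts do not separate the transcripts of p16 from those of ARF. CDKN2B, whose product p15 is a known mediator of arrest by TGF-beta, behaved otherwise in these H1299 libraries. Its 625, 588 and 628 counts with DMSO became 2441, 2257 and 2095 with SAHA, and the groups lay far apart. The level rose from 36.0 ± 1.57 to 137 ± 12.7 CPM (1.88 ± 0.10, adjusted p = 6.68e-07).

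In all 6 H1703 libraries, CDKN2A and CDKN2B had 0 counts. A limit of 3 counts per library corresponds to at most 0.206 CPM with DMSO and 0.200 CPM with SAHA, for counting error only. Against the limit of the same treatment CDKN2A was at least 989-fold lower in H1703 than in H1299 with DMSO (adjusted p = 1.77e-05) and at least 921-fold lower with SAHA, and CDKN2B was at least 174-fold lower with DMSO (adjusted p = 8.55e-11) and at least 687-fold lower with SAHA. CDKN2B was thus not detectable in H1703 at this depth after 24 h with SAHA. The gap was wider than the 2 genes. Of the deposited genes, 11 lie wholly within chr9:21858910-22121097, a stretch of 262.2 kb whose ends were set after its values were seen, and all 11 had 0 counts in every H1703 library and counts in H1299, summed to 28537. Besides CDKN2A and CDKN2B these include the antisense RNA CDKN2B-AS1 (ANRIL), with 44, 37 and 36 counts in H1299 under DMSO and 20, 20 and 25 with SAHA, and 8 genes with at most 62 counts over the 6 H1299 libraries. On both sides of the stretch H1703 had counts. DMRTA1 had 76, 90 and 87 with DMSO and 97, 148 and 97 with SAHA. MTAP, a gene of methionine salvage whose 3′ part reaches into the stretch, had 143, 79 and 178 with DMSO and 193, 450 and 306 with SAHA. The deposited counts are of RNA, and DNA was not measured. AL359922.1, a read-through gene over MTAP and the INK4 genes, had 127 counts in H1703 DMSO library 2, the library in which MTAP was lowest, and at most 1 in the other 5 H1703 libraries. How reads of overlapping genes were shared is not stated in the labels, so MTAP, CDKN2B-AS1 and AL359922.1 are uncertain.

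**Figure D3:**
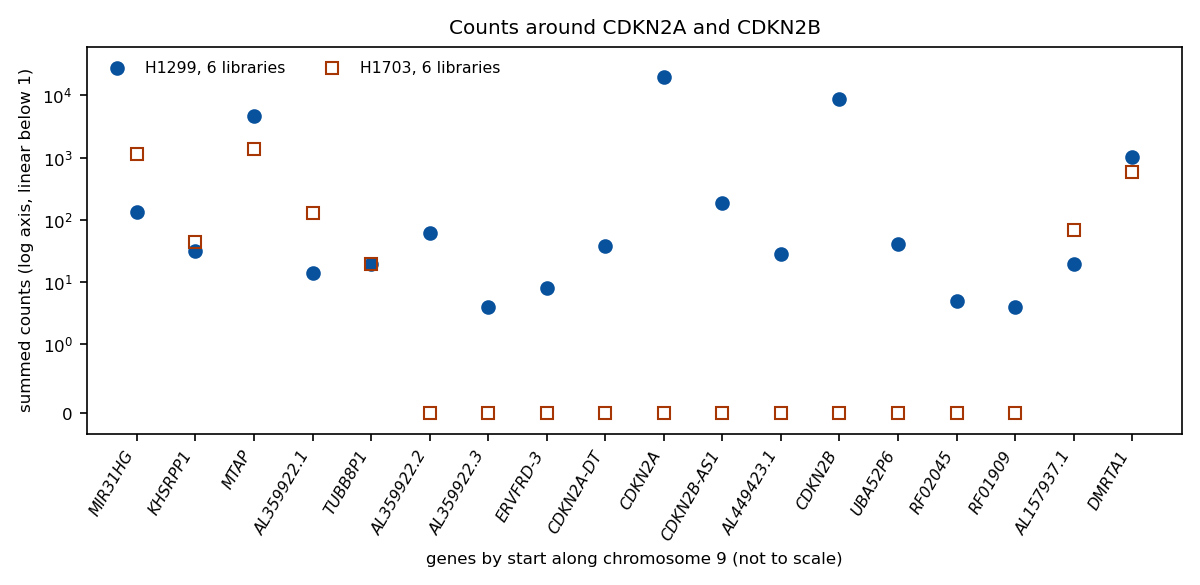
Counts summed over 6 libraries per line for genes around CDKN2A and CDKN2B with at least 3 summed counts in either line, in order of their start along chromosome 9 (equal spacing, log axis that is linear below 1). Filled circles are H1299 and open squares are H1703. From AL359922.2 to RF01909 the H1703 squares lie at 0, while MTAP and DMRTA1 at the sides have counts in both lines.

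CDKN2C encodes p18 and fell in both lines. In H1299 its counts were 1328, 1354 and 1290 under DMSO and 643, 628 and 676 under SAHA. In H1703 the counts were 622, 650 and 591 with DMSO and 404, 466 and 334 with SAHA. No groups overlapped within a line. The level went from 77.8 ± 4.13 to 39.3 ± 0.776 CPM in H1299 (-1.04 ± 0.08, adjusted p = 7.92e-06) and from 39.4 ± 1.38 to 25.3 ± 2.91 CPM in H1703 (-0.62 ± 0.11, adjusted p = 0.000625). The H1299 level with SAHA was thus near the H1703 level with DMSO. The smaller fall in H1703 missed the threshold as a difference between the lines (0.35 ± 0.13, adjusted p = 0.0554). It was called with DESeq2 (adjusted p = 0.0125), with DESeq2 size factors in edgeR (0.0263), with TMM over nuclear coding genes (0.0237), without H1703 SAHA library 3 (0.0111) and without repeat 3 (0.0255).

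CDKN2D encodes p19, the INK4 protein known to vary with the cell cycle. Its counts in H1299 were 492, 506 and 442 with DMSO and 678, 713 and 674 with SAHA. In H1703 they were 87, 91 and 86 with DMSO and 245, 304 and 230 with SAHA. Each SAHA group was wholly above its DMSO group. The rise was from 28.2 ± 2.78 to 41.8 ± 3.10 CPM in H1299 (0.51 ± 0.11, adjusted p = 0.00286) and from 5.59 ± 0.304 to 16.4 ± 1.27 CPM in H1703 (1.57 ± 0.13, adjusted p = 5.04e-06). It was larger in H1703 by 0.98 ± 0.16 on the log2 scale (adjusted p = 0.000298). Even so the highest H1703 library with SAHA, at 17.7 CPM, was below the lowest H1299 library with DMSO, at 25.0 CPM.

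The promoters of CDKN2B and CDKN2D are shown as those of the INK4 genes that rose. Both genes lie on the minus strand, and the windows are given as sense strand 5′ to 3′ on GRCh38.p14, at chr9:22009364-22009555 and chr19:10569060-10569229. They leave out the 58 and 80 bases nearest the RefSeq start, which lie within the gene in the deposited tables. Capitals mark the GC box on either strand.
CDKN2B: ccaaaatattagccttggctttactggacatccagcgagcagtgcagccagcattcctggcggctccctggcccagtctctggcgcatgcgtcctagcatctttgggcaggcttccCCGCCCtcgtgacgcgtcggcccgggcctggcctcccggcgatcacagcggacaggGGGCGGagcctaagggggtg
CDKN2D: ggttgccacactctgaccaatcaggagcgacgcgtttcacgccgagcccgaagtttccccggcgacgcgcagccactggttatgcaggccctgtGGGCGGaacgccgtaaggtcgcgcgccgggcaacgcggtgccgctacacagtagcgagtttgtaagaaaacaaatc
The whole 250-base windows of CDKN2B and CDKN2D each hold 2 GC boxes, 1 on each strand, as do 24.3% of all windows when windows with more are counted in. Of the 3 CDKN2C start sites in the RefSeq table, the middle 1 holds 5 GC boxes, a number reached by 4.1% of windows, and the other two hold 0 and 1. Which start site is used in these cells was not measured. The CDKN2A windows hold 1 and 0, and CDKN1C has no entry.

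Between the lines under DMSO, 2 of the 7 members were higher in H1703 (CDKN1A, CDKN1C) and 5 were lower. Of the 19105 genes tested there, 34.3% were called higher, 32.2% lower and 66.5% either way. CDKN1B was lower by 1.44-fold (-0.52 ± 0.10, adjusted p = 0.000247), CDKN2C by 1.97-fold (-0.98 ± 0.09, adjusted p = 3.84e-07) and CDKN2D by 5.05-fold (-2.33 ± 0.12, adjusted p = 5.53e-10). The INK4 genes were thus all lower in H1703, and of the Cip/Kip genes only CDKN1B was. The SAHA effect differed between the lines for 4 of the 5 members counted in both. It was more positive in H1703 for CDKN1B and CDKN2D, where 13.7% of 19105 genes were called that way, and more negative for CDKN1A and CDKN1C, where 21.2% were; 34.9% were called in either direction. These comparisons share their DMSO libraries with those of SAHA, so a low DMSO level and a large rise are not independent.

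Levels of different genes were set side by side only per length, in the deposited FPKM, fragments scaled by gene length and library total. In H1299 with DMSO, CDKN2A led at 27.3 ± 2.23 FPKM. CDKN1B (16.0 ± 0.752), CDKN2C (15.8 ± 0.715) and CDKN1A (14.5 ± 1.23) followed, and the ranges of neighbours in that order overlapped. CDKN2D (12.2 ± 1.09), CDKN2B (6.67 ± 0.340) and CDKN1C (0.227 ± 0.0878) stood below them without overlap. With SAHA, CDKN1A led at 63.3 ± 3.07 FPKM, above CDKN2B (25.7 ± 2.94), CDKN2A (24.7 ± 8.58) and CDKN2D (18.2 ± 1.47), whose ranges overlapped along the order, and then CDKN1B (9.92 ± 1.00), CDKN2C (8.06 ± 0.128) and CDKN1C (1.07 ± 0.0842). In H1703 CDKN1A was first in both groups, at 33.7 ± 1.44 FPKM with DMSO and 104 ± 3.84 with SAHA, with CDKN1B second at 9.77 ± 1.07 and 11.3 ± 0.545. CDKN2C (7.0 ± 0.304) was above CDKN2D (2.11 ± 0.134) with DMSO and below it with SAHA (4.23 ± 0.508 and 5.81 ± 0.459), and CDKN1C was last at 1.37 ± 0.0769 and 0.472 ± 0.154. Ranges of neighbours did not overlap in H1703.

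Summed over the 7 genes, the level went from 92.6 ± 5.66 to 151 ± 6.60 FPKM in H1299 and from 53.9 ± 2.91 to 126 ± 4.62 FPKM in H1703. CDKN1A supplied 15.6 ± 0.446% of the sum in H1299 under DMSO and 42.0 ± 2.71% under SAHA, and in H1703 62.5 ± 0.851% and 82.7 ± 0.783%. Its share rose in both lines with every gene length tried, but the size of the share and the sums depend on the length. In H1299 with DMSO the share was 19.7 ± 0.549% by merged exons and 10.3 ± 0.396% by canonical transcript. By merged exons the sum with SAHA was 250 ± 20.2 CPM per kb in H1299 and 270 ± 11.1 in H1703. There H1703 had the higher mean, unlike in FPKM, but scaling differs there as well as length. CPM per kb carries TMM scaling, whereas FPKM is scaled by the library total. The part of each in this reversal was not tested. By canonical transcript, also with TMM scaling, H1299 had the higher mean with SAHA, at 483 ± 73.3 against 405 ± 16.4 CPM per kb. The lengths matter for the order, because that implied by the deposited FPKM for CDKN1C, 6485 bases, exceeds the 2669 bases the gene spans. With merged exons or with the canonical transcript of GENCODE v44, 51 of the 62 pairs of genes within a group kept the order given here. By canonical transcript CDKN2A, not CDKN1A, led in H1299 with SAHA, at 188 ± 68.6 against 171 ± 11.5 CPM per kb, with ranges that overlapped. The lead of CDKN2A in H1299 with DMSO and that of CDKN1A in H1703 held with each length. By neither GENCODE length was CDKN1B second in H1703. Its rank was 3 with DMSO, and with SAHA it was 4 by merged exons and 3 by canonical transcript. With SAHA, CDKN2D stayed above CDKN2C by merged exons (10.9 ± 0.847 against 8.39 ± 0.965) but not by canonical transcript (11.5 ± 0.894 against 25.4 ± 2.93). With DMSO, CDKN2D and not CDKN1C had the lowest H1703 mean by either length.

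**Figure D4:**
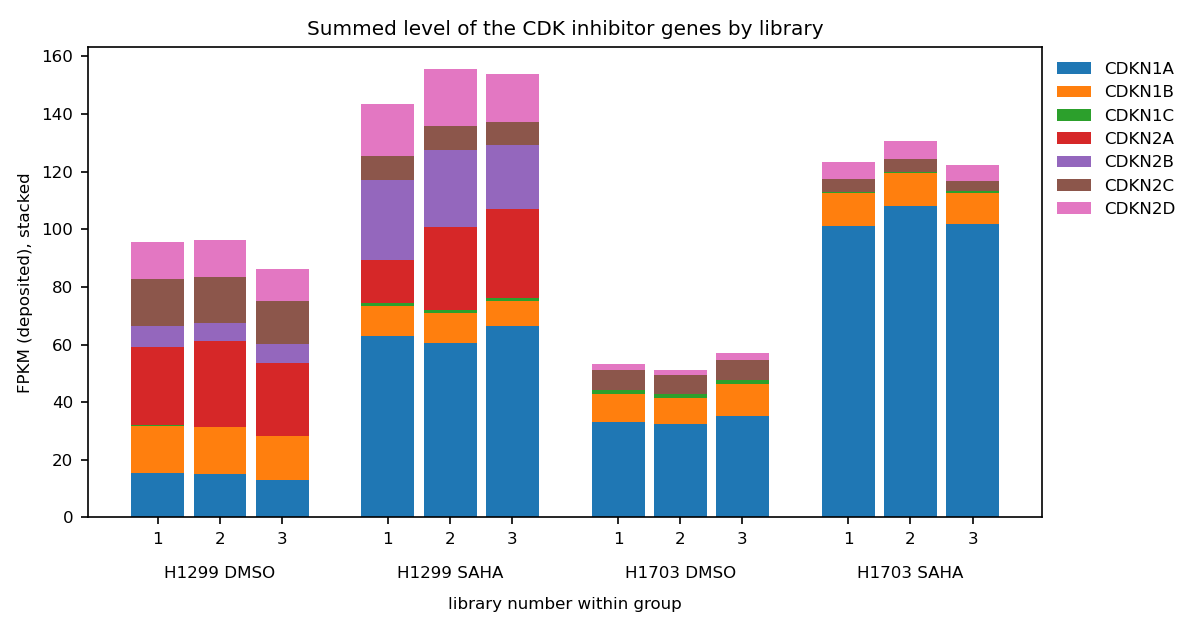
Deposited FPKM of the 7 CDK inhibitor genes stacked for each of the 12 libraries (linear axis from 0, libraries 1 to 3 within each group). CDKN1A (bottom, blue) takes 15.6% of the sum in H1299 with DMSO and 82.7% in H1703 with SAHA, and CDKN2A and CDKN2B are absent from the H1703 bars.

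Genes within 50 kb of a member were examined for shared direction. GPR19, an orphan receptor gene 18.9 kb from CDKN1B, moved as CDKN1B did in each line. In H1299 it had 145, 122 and 146 counts under DMSO and 86, 65 and 91 under SAHA (-0.78 ± 0.16, adjusted p = 0.00245). In H1703 it had 18, 30 and 26 with DMSO and 80, 101 and 98 with SAHA (1.92 ± 0.22, adjusted p = 4.31e-05). SLC22A18, a transporter gene 13.8 kb from CDKN1C in the same imprinted domain, moved as CDKN1C did. It rose in H1299 (141, 152 and 126 counts to 366, 366 and 454, log2 fold change 1.49 ± 0.14, adjusted p = 1.57e-05) and fell in H1703 (443, 457 and 362 to 272, 329 and 245, -0.56 ± 0.11, adjusted p = 0.00134). Its antisense neighbour SLC22A18AS, which cannot be told apart from it where they overlap unless counting used strand, fell in H1703 from 94, 84 and 56 counts to 12, 15 and 17 (-2.38 ± 0.26, adjusted p = 3.21e-05) and had at most 10 counts in any H1299 library. The domain did not move as a block. PHLDA2, a growth-restraining gene 42.4 kb away, was called lower in both lines, at -0.32 ± 0.12 (adjusted p = 0.0386, but 0.0581 with the repeat as a block and up to 0.199 with a library or repeat left out) in H1299 and -0.46 ± 0.12 (adjusted p = 0.00726) in H1703. The potassium channel gene KCNQ1 had 0 counts in H1299 with DMSO and rose in H1703 (0.96 ± 0.29, adjusted p = 0.0148, but 0.0505 without DMSO library 3, 0.0548 without SAHA library 1 and 0.0737 without repeat 2).

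**Figure D5:**
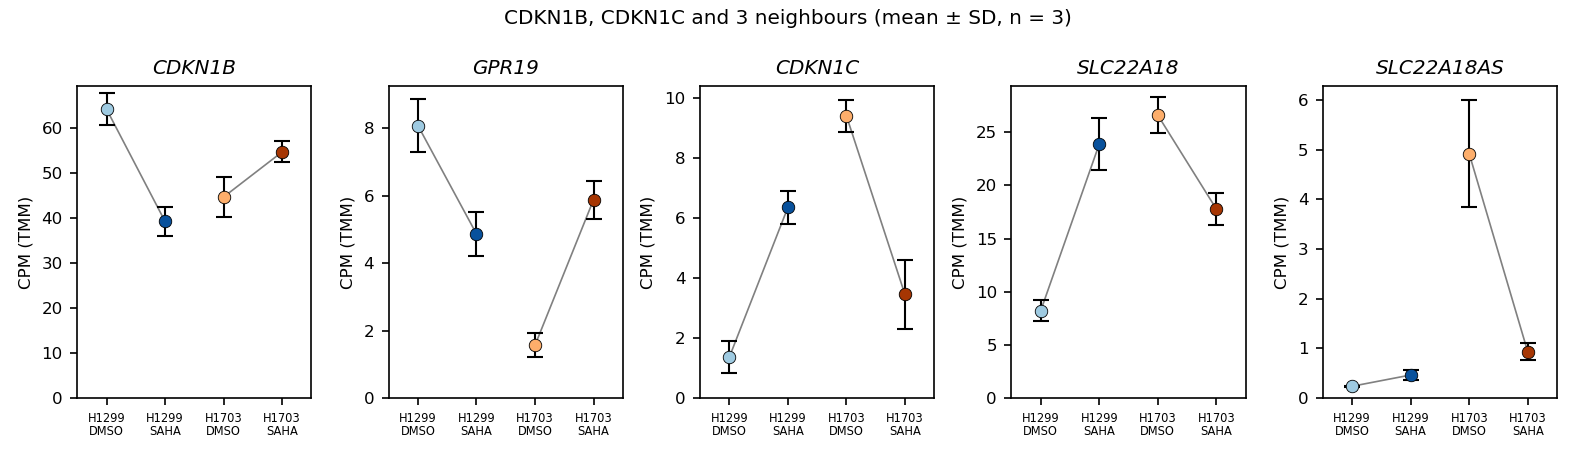
Levels of CDKN1B with its neighbour GPR19, and of CDKN1C with its neighbours SLC22A18 and SLC22A18AS, in CPM with TMM scaling (mean ± SD, n = 3, axes from 0). Grey lines join DMSO to SAHA within a line. GPR19 moves as CDKN1B does, down in H1299 and up in H1703, and SLC22A18 moves as CDKN1C does, up in H1299 and down in H1703.

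At the other members, neighbours mostly went their own way. KRI1, 425 bases from CDKN2D, fell in H1299 (-0.67 ± 0.10, adjusted p = 0.000256) and was not called in H1703 (-0.08 ± 0.18, adjusted p = 0.708). AP1M2, 3.61 kb to the other side, fell in both lines (-0.96 ± 0.17, adjusted p = 0.000997, and -3.42 ± 0.28, adjusted p = 1.20e-05) where CDKN2D rose. SLC44A2, 33.4 kb away, rose in both (1.16 ± 0.09, adjusted p = 6.02e-06, and 1.33 ± 0.10, adjusted p = 1.99e-06). FAF1, which begins 482 bases from CDKN2C, was not called in H1299 (-0.09 ± 0.08, adjusted p = 0.345) and fell in H1703 (-0.29 ± 0.07, adjusted p = 0.00642, but 0.0629 without repeat 1). CDKN2B-AS1 fell in H1299 (-0.86 ± 0.24, adjusted p = 0.0117, but 0.103 without repeat 1 and 0.0505 without repeat 2) while CDKN2B rose. Beside CDKN1A, the RNA PANDAR had at most 17 counts in any library. Beside CDKN1B itself, APOLD1, 3.55 kb away and so nearer than GPR19, was called in neither line. Its values were -0.12 ± 0.29 in H1299 (adjusted p = 0.731) and 0.42 ± 1.06 in H1703 (adjusted p = 0.749). APOLD1 turned on single libraries, with 24, 283 and 18 counts in H1703 under DMSO.

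The kinases, cyclins and retinoblastoma proteins that the inhibitors act on were mostly lower. Of 14 such genes, all tested, 9 fell and 4 rose in H1299, where 30.4% of all genes tested were called lower and 33.3% higher. In H1703, 10 fell and 2 rose, where 32.6% of all genes were called lower and 34.7% higher. The median log2 fold change was -0.64 in H1299 and -0.86 in H1703, where all genes had 0.02. CDK4 and CDK6, the kinases held by INK4 proteins, fell in both lines, with log2 fold changes of -0.54 ± 0.08 and -0.73 ± 0.12 in H1299 (adjusted p = 0.000310 and 0.000631) and of -0.36 ± 0.10 and -0.96 ± 0.09 in H1703 (adjusted p = 0.00846 and 8.34e-06, the call of CDK4 being lost without repeat 3 at 0.0571). The mitotic cyclin gene CCNB1 fell in both lines, with -2.16 ± 0.09 in H1299 and -3.68 ± 0.14 in H1703 (adjusted p = 2.59e-07 and 8.13e-08), and so did CCNA2, with -1.72 ± 0.09 in H1299 and -4.49 ± 0.11 in H1703 (adjusted p = 8.63e-07 and 5.52e-09). CDK1, the mitotic kinase, fell in both lines, with -1.04 ± 0.10 in H1299 and -2.92 ± 0.10 in H1703 (adjusted p = 2.22e-05 and 2.22e-08). The D-type cyclin gene CCND2, a partner of CDK4 and CDK6 named here after its values were seen, rose in both lines from few counts. In H1299 it went from 9, 10 and 13 counts to 346, 399 and 437 (5.18 ± 0.19, adjusted p = 1.41e-07). In H1703 it had 0, 0 and 1 counts with DMSO and 79, 85 and 126 with SAHA (adjusted p = 2.13e-06), and no fold is given against so few. CCNE1, the cyclin partner of CDK2 that Cip/Kip proteins block, also rose in both lines, by 1.65 ± 0.10 in H1299 (adjusted p = 1.25e-06) and by 0.30 ± 0.09 in H1703 (adjusted p = 0.0103, but 0.0555 without DMSO library 1 and 0.0966 without repeat 1). CCND1, which encodes cyclin D1, rose by 0.29 ± 0.08 in H1299 (adjusted p = 0.00823, but 0.0589 without DMSO library 1 and 0.0604 without repeat 1) and fell in H1703 (-0.75 ± 0.07, adjusted p = 6.00e-06). RB1 fell in H1299 (-0.77 ± 0.14, adjusted p = 0.000904) and missed the threshold in H1703 (-0.27 ± 0.11, adjusted p = 0.0611), where it was called without H1703 SAHA library 3 (0.00676), without repeat 3 (0.0175) and without a count filter (0.0298).

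Genes whose products take part in the degradation of p21, p27 or p57 fell in their majority. Of 13, 9 fell and 1 rose in H1299, and 10 fell and 1 rose in H1703, beside 30.4% and 32.6% of all genes called lower. The median log2 fold changes were -0.87 and -0.90, beside 0.02 over all genes in both lines. CKS1B, the cofactor of the SKP2 ligase that marks p27 for degradation, went from 1466, 1600 and 1600 counts to 509, 491 and 534 in H1299 (-1.61 ± 0.08, adjusted p = 6.18e-07). In H1703 it went from 1207, 1512 and 1113 counts to 142, 193 and 112 (-3.09 ± 0.15, adjusted p = 1.61e-07). No groups overlapped. CUL1, the scaffold of that ligase, fell in both lines, with -0.98 ± 0.08 in H1299 and -1.19 ± 0.12 in H1703 (adjusted p = 5.69e-06 and 1.78e-05). DTL, which directs p21 to its ligase, fell in both lines, with -0.69 ± 0.10 in H1299 and -2.42 ± 0.13 in H1703 (adjusted p = 0.000230 and 2.36e-07), CDC20 followed with -1.02 ± 0.11 in H1299 and -3.21 ± 0.16 in H1703 (adjusted p = 5.28e-05 and 6.54e-07) and PCNA with -1.52 ± 0.09 in H1299 and -0.76 ± 0.07 in H1703 (adjusted p = 1.02e-06 and 8.25e-06). RNF123, of a second p27 ligase, rose in H1703 (0.64 ± 0.09, adjusted p = 0.000217). In H1299 it was called at 0.24 ± 0.09 (adjusted p = 0.0436), but not with the repeat as a block (0.0939), and the value reached 0.336 with a repeat left out. UBAC1, listed for the same ligase, fell in both lines, with -0.87 ± 0.08 in H1299 and -0.55 ± 0.11 in H1703 (adjusted p = 1.87e-05 and 0.00127). Protein was not measured.

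Known transcriptional regulators of the inhibitors were called in both directions. Of 24 genes, 23 were tested in each line, with 9 higher and 9 lower in H1299 and 8 higher and 10 lower in H1703. These counts are near the shares over all genes, 33.3% higher and 30.4% lower in H1299 and 34.7% and 32.6% in H1703. FOXO1, an activator of CDKN1B, rose from 84, 83 and 81 counts to 269, 218 and 238 in H1299 (1.53 ± 0.14, adjusted p = 1.24e-05), where CDKN1B fell. It rose in H1703 too (1.76 ± 0.16, adjusted p = 8.45e-06). SP1 fell in both lines, with -0.70 ± 0.08 in H1299 and -0.66 ± 0.10 in H1703 (adjusted p = 5.39e-05 and 0.000232). CBX7, a Polycomb repressor of the CDKN2A locus, rose by 0.93 ± 0.10 and 1.92 ± 0.12 (adjusted p = 3.26e-05 and 9.21e-07), and ID1, an inhibitor of ETS and E-protein activation of CDKN2A, rose by 1.12 ± 0.09 and 0.55 ± 0.08 (adjusted p = 5.38e-06 and 0.000282). ETS2, an activator of CDKN2A, rose in H1299 (1.09 ± 0.13, adjusted p = 8.26e-05) and fell in H1703 (-1.06 ± 0.08, adjusted p = 2.50e-06).

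All 8 proliferation genes examined fell in both lines, with medians of -1.57 in H1299 and -3.38 in H1703. All 8 fell further in H1703 by the test of the difference. Over all genes tested, 30.4% were called lower in H1299 and 32.6% in H1703, and the median was 0.02 in both lines. A more negative effect in H1703 was called for 21.2% of all genes. The summed level of the 8 genes went from between 1524 and 1770 CPM to between 464 and 579 CPM in H1299. In H1703 it went from between 1492 and 1563 CPM to between 137 and 150 CPM. PLK1 had the smallest adjusted p of the list in H1299 (-2.02 ± 0.12, adjusted p = 1.49e-06), and TOP2A in H1703 (-3.73 ± 0.08, adjusted p = 3.85e-09). The share of counts from mitochondrial genes moved with SAHA too, from 2.12 ± 0.140% to 4.10 ± 0.119% in H1299 and from 5.88 ± 0.417% to 9.57 ± 1.18% in H1703. The part of either in the changes of the inhibitors was not tested. In such bulk libraries fewer cells with a transcript and less of it per cell cannot be told apart.

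As a description of likeness, log2 CPM of each member was compared over the 12 libraries with that of 10771 genes. The libraries fall into 4 groups and are not 12 independent conditions. The gene nearest to CDKN1A was GDPD5 (Pearson r = 0.996, n = 12), ahead of JAGN1 (0.996) and the mitochondrial MT-TY (0.995). NFYA was nearest to CDKN1B (0.938), NT5C2 to CDKN1C (0.966), MTA1, of the NuRD deacetylase complex, to CDKN2C (0.992) and INAFM2 to CDKN2D (0.995). For CDKN2A and CDKN2B the nearest were RPL7P9 (0.996), a ribosomal pseudogene that is uncertain because near-identical copies share reads, and FLNC (1.00), with the member at 0 in 6 of the 12 libraries.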

How the data were processed

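Polyadenylated RNA of 12 libraries was sequenced as paired ends, per the labels. Per the file headers, the authors deposited for each line a table of raw counts and FPKM per gene. The submitters' processing notes name HISAT2 2.1.0, StringTie 1.3.3b, edgeR 3.30.3, fastp and FastQC 0.11.9 and the build GRCh38, without their roles. Counter, annotation release and strand setting are not given in these sources, and the labels name both a directional and an un-stranded library, so overlapping genes are uncertain. The control columns, headed NC, were taken as DMSO, the only other group of each line. Each deposited FPKM is its count over the library total and 1 length per gene (within 1% in 100.0% of 201185 values). Replicate pairs differed beyond sampling noise (chi-square over degrees of freedom from 9.96 to 22.3).

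Counts were tested with edgeR 4.0.16 (R 4.3.3; filterByExpr, TMM, robust quasi-likelihood), each line alone, and with all 12 libraries for the difference between the lines and for the interaction. DESeq2 1.42.0, other scalings, filters, a replicate block and left-out libraries were alternatives. The code was tested on simulated data. The members and lists were chosen with earlier results of these data known. The named list genes were the 3 with the smallest adjusted p per list and line at a mean log2 CPM of 1 or more, 1 of the opposite direction, and CDK4, CDK6, CCND1 and RB1; 1 gene that this rule names is not reported here. CCND2, below that level, and UBAC1 were added after their values were seen. Neighbours are genes within 50 kb with 10 counts in a library; the report names most of them. Likeness was searched among genes whose mean log2 CPM reached 3. Promoters are RefSeq's (GRCh38.p14), matched for 6 of the 7 members. The labels give the replicate number as a batch, so it may pair libraries across groups. Deviations of same-numbered libraries correlated only from -0.073 to 0.054, and those of differently numbered libraries from -0.051 to 0.108. Totals of 14.4M to 19.4M counts per library limit CDKN1C, with 16 counts in its lowest library, and the genes at 0 in H1703.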

Additional observations from a re-analysis of the deposited data

Results flagged for a closer look

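For 4 CDK inhibitor genes the SAHA effect differed between the lines by edgeR's interaction test over the 12 libraries (H1703 minus H1299, log2). The difference was -3.67 ± 0.37 for CDKN1C (adjusted p = 3.54e-06) and 1.00 ± 0.14 for CDKN1B (adjusted p = 6.11e-05). Both genes had opposite directions in the lines, and every repeat showed its line's direction. For CDKN1B in H1703, repeat 3 did so by only 0.07, and the rise lost its call in 5 left-out runs. For CDKN2D the difference was 0.98 ± 0.16 (adjusted p = 0.000298), a rise in all 3 repeats of both lines that was larger in H1703. For CDKN1A the difference was -0.40 ± 0.12 (adjusted p = 0.0152), no longer called without repeat 1 (0.0769) or without repeat 3 (0.169). CDKN1A rose in all 3 repeats of both lines, by 1.98 to 2.38 in H1299 and 1.64 to 1.81 in H1703. The interaction was called for 34.9% of all genes tested.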

How the results depend on the processing

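Of 22 results on single inhibitors, 18 kept direction and call in every alternative run (scalings, filters, DESeq2, replicate block, left-out libraries or repeats). The replicate block changed no call of an inhibitor; the interaction of CDKN2C stayed uncalled with it (0.0786). The other 4 were as follows. With libraries or repeats left out, CDKN1B in H1703 ran from 0.23 to 0.42 and was uncalled in 5 of them, the interaction of CDKN1A ran from -0.53 to -0.23, that of CDKN2C from 0.26 to 0.51, and CDKN2A in H1299 from -0.49 to 0.071, never called. The CDKN2C interaction was called with DESeq2 size factors (0.41), TMM over nuclear coding genes (0.42) and the DESeq2 test (0.42). The count of inhibitors with a more negative effect in H1703 ran from 1 to 2 with libraries left out. Among neighbours, uncalled values changed sign: with libraries left out APOLD1 ran from -0.60 to 0.10 in H1299 and from -0.076 to 2.70 in H1703, ATG4D in H1703 from -0.12 to 0.11 (0.0080 with DESeq2 size factors, 0.0071 with the DESeq2 test), KRI1 in H1703 from -0.33 to 0.057, MTAP in H1299 from -0.063 to 0.51 and S1PR5 in H1299 from -0.014 to 0.21. MTAP in H1703 was called (1.21, adjusted p = 0.0442) but not with the replicate block (0.120). A fit of H1299 within all 12 libraries moved the median of all genes from 0.02 to 0.12. The pairs of inhibitors in the order of FPKM numbered 62 of 62 with CPM per implied length, and 51 with either length chosen after seeing the data. The causes were not tested. Limits at this depth bear on CDKN1C in H1299 and on the INK4 genes with 0 counts in H1703.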
